A study of Gallus gallus with 6 samples.

Results

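The miR-101 products are the mature miRNAs cut from the miR-101 hairpins. All entries of the deposited liver table named miR-101 were taken, which gave 3 of the 565 listed miRNAs: miR-101-3p, miR-101-2-5p and miR-101-1-5p. The choice used the name alone. A miRNA hairpin is cut into a duplex with a 5p and a 3p strand, of which mostly 1 is kept in the silencing complex and guides it to mRNAs through the seed near its 5′ end. MiR-101-3p is the kept strand in vertebrates. In human and mouse cells it is best known for lowering EZH2, the histone H3 lysine methyltransferase of the Polycomb complex, and in human liver its level is commonly low in hepatocellular carcinoma.

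Liver was taken from 3 female hens of the Lushi breed, a Chinese green-shell layer, at 30 weeks of age (L30, egg-laying, at peak lay) and from 3 at 20 weeks (L20, juvenile in the labels, before lay). The birds were kept caged in shared conditions. The study mentions no pooling of livers, so each library of small RNA was taken as 1 hen. Age and laying state cannot be told apart in this design, and p-values measure the spread between hens. With 1 library per hen, that spread includes differences in library preparation. In whole liver, fewer cells of a type and less RNA per cell cannot be told apart either. Between 3864984 and 8804077 reads were counted on the listed miRNAs in the L30 libraries, against 7135289 to 14822854 in the L20 libraries. These were 17.7% to 42.6% of the raw reads in L30 and 47.8% to 56.3% in L20, with L30-3 the lowest. This share did not overlap between the ages, so a difference with age cannot be told apart from a difference with this share. Levels are given as a share of the counted reads, in percent or as CPM (counts per 1000000 counted reads). A limit of 3 counts corresponded to 0.341 to 0.776 CPM in L30 and 0.202 to 0.42 CPM in L20. Reads were amplified without molecular identifiers, so intervals from counts cover counting error only. Ligation favours some small RNAs over others, so a level compared between miRNAs is a level of reads.

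In the table, miR-101-3p is assigned to both hairpins, mir-101-1 and mir-101-2, whereas each 5p product is assigned to the 1 hairpin of its name. The 3p reads can therefore not be divided between the hairpins, and only the 5p reads tell them apart. By symbol, the hairpins were matched to MIR101-1 and MIR101-2 of RefSeq (GRCg7b). MIR101-1 lies within the span of RCL1, which encodes a factor of ribosomal RNA processing, with AK3 and JAK2 as the nearest protein-coding genes on either side. MIR101-2 lies within a protein-coding model with no gene name, LOC101749837, between JAK1 and AK4. JAK1 and JAK2 are Janus kinases and AK3 and AK4 are adenylate kinases, so both hairpins sit next to a member of the same gene families. In human, the copy inside RCL1 is the one numbered MIR101-2, so the hairpin numbers do not carry over between the species.

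As a share of the counted reads, miR-101-3p was an abundant and even miRNA of these livers. It took 1.54%, 1.47% and 1.72% of the counted reads in L30-1, L30-2 and L30-3, against 1.84%, 1.91% and 1.64% in L20-1, L20-2 and L20-3. L30-3 lay above L20-3, so the ages overlapped. The mean share was 1.57% ± 0.129 in L30 and 1.80% ± 0.141 in L20 (SD, n = 3 each), a ratio of 0.876 and a difference of −0.222 percentage points (exact permutation over libraries, both sides, p = 0.2, where 3 libraries against 3 cannot go below 0.1). In edgeR's quasi-likelihood test its log2 fold change was −0.19 ± 0.16 (SE, adjusted p = 0.391). With at least 65605 reads in every library, the spread between libraries of an age was far larger than the counting error. In L30-2, for example, the 95% Poisson interval ran from 14582 to 14807 CPM.

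By reads, miR-101-3p was the 14th miRNA in each of the 3 L30 libraries and the 12th in each of the 3 L20 libraries. In CPM its highest library was 1.30 times its lowest, where the median of the 235 tested miRNAs was 2.86, and 5 of the tested miRNAs had a smaller ratio. The tested miRNAs include some of few reads, where counting error widens this ratio. By mean CPM it was the 14th, and its neighbours in that order show how far the order holds. MiR-100-5p, just above it, ranged from 12047 to 19002 CPM in L30 and from 14081 to 19466 in L20, so it did not differ from miR-101-3p beyond its spread. MiR-92-3p, the 12th, lay above miR-101-3p in L30 (19995 to 27409 CPM, against 14695 to 17178 for miR-101-3p) and below it in L20 (10486 to 14755 CPM, against 16401 to 19128). MiR-181a-5p, the 15th, overlapped it in L30 (9607 to 20266 CPM) and lay below it in L20 (9360.0 to 15545 CPM). MiR-140-3p, the 16th, stayed below it at both ages, at 7268 to 9836 CPM in L30 and 9466 to 11634 CPM in L20.

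MiR-101-2-5p, the opposite strand of the mir-101-2 hairpin, was lower in the L30 libraries as a share of the counted reads. It had 435, 198 and 119 reads in L30-1, L30-2 and L30-3, against 981, 1070 and 479 reads in L20-1, L20-2 and L20-3. These were 49.4, 44.3 and 30.8 CPM in L30, against 83.4, 72.2 and 67.1 CPM in L20. All 3 L30 libraries lay under all 3 L20 libraries. Over the 6 libraries its CPM had the same order as the share of raw reads counted on miRNAs. That share was 42.6%, 29.5% and 17.7% in L30-1, L30-2 and L30-3, against 56.3%, 54.5% and 47.8% in L20-1, L20-2 and L20-3. Age and that share cannot be told apart here, and the part of that share in this difference was not tested. The mean was 41.5 ± 9.63 CPM in L30 and 74.2 ± 8.31 CPM in L20 (SD, n = 3 each). Its log2 fold change was −0.84 ± 0.25 (SE, adjusted p = 0.0417 in edgeR). This call was close to the threshold. Of the fits that left out 1 library, only the one without L30-1 kept it (edgeR adjusted p = 0.0498). In the others the edgeR adjusted p was 0.0631 and 0.0703 without L30-2 and L30-3, and 0.0854, 0.104 and 0.0818 without L20-1, L20-2 and L20-3.

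MiR-101-1-5p, the opposite strand of the mir-101-1 hairpin, was close to the limit of the data. It had 22, 5 and 13 reads in the L30 libraries, against 45, 81 and 24 in the L20 libraries, or 2.50, 1.12 and 3.36 CPM in L30, against 3.82, 5.46 and 3.36 CPM in L20. L30-3 and L20-3 were equal at this rounding, and the 95% Poisson interval of L30-3 ran from 1.79 to 5.75 CPM. The mean was 2.33 ± 1.13 CPM in L30 and 4.22 ± 1.10 CPM in L20 (SD, n = 3 each). Its log2 fold change of −0.86 was about that of miR-101-2-5p, but with a standard error of 0.48 it did not pass the test (edgeR adjusted p = 0.19). Without L30-2 the log2 fold change was −0.54 and without L30-3 it was −1.17. How far the low counts and how far the spread between hens set this error was not tested.

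**Figure D1:**
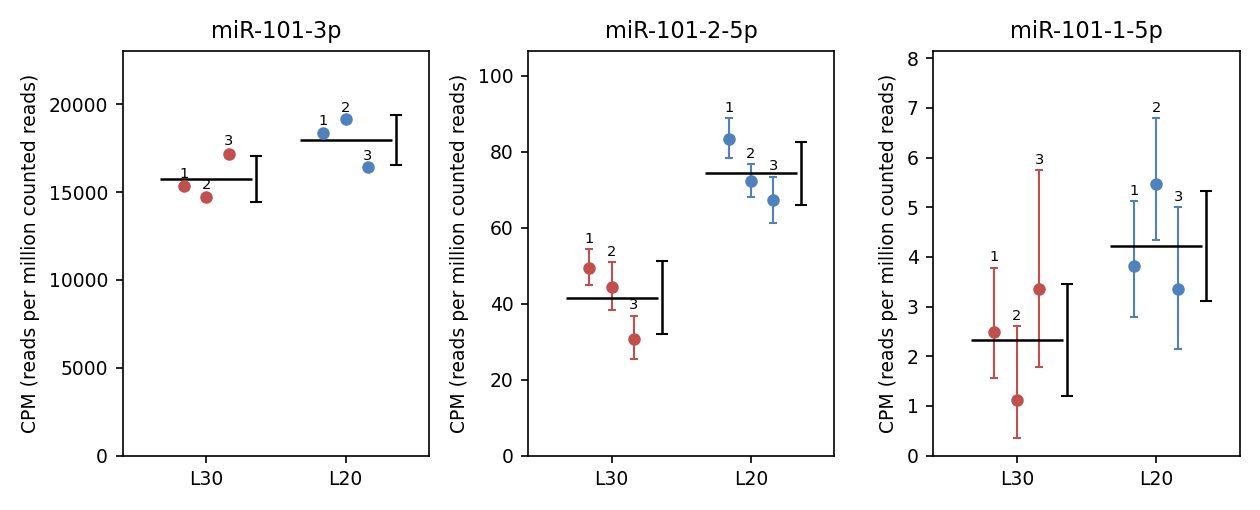
Level of each miR-101 product in each library, in CPM (vertical axis, from 0, a scale of its own per panel), with L30 left of L20. Points are libraries with their replicate number and 95% Poisson interval, horizontal lines are means and black bars at the side are SD (n = 3). MiR-101-3p overlaps between the ages, miR-101-2-5p does not (30.8 to 49.4 CPM in L30, 67.1 to 83.4 CPM in L20), and miR-101-1-5p meets at 3.36 CPM.

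Thus 1 of the 3 products was called lower at 30 weeks. Among all 235 tested miRNAs 38 were called lower, which is 16.2%, and 30 were called higher. Non-overlap in that direction was found for 64 of the 235, or 27.2%, so the separation of miR-101-2-5p was a common one in this table. The quartiles of the tested log2 fold changes were −0.75 and 0.58. MiR-101-3p lay well between them, with 105 tested miRNAs more negative. MiR-101-2-5p and miR-101-1-5p lay just under the lower one, with 53 and 49 tested miRNAs more negative. Of the tested miRNAs 2 had a smaller standard error than miR-101-3p.

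**Figure D2:**
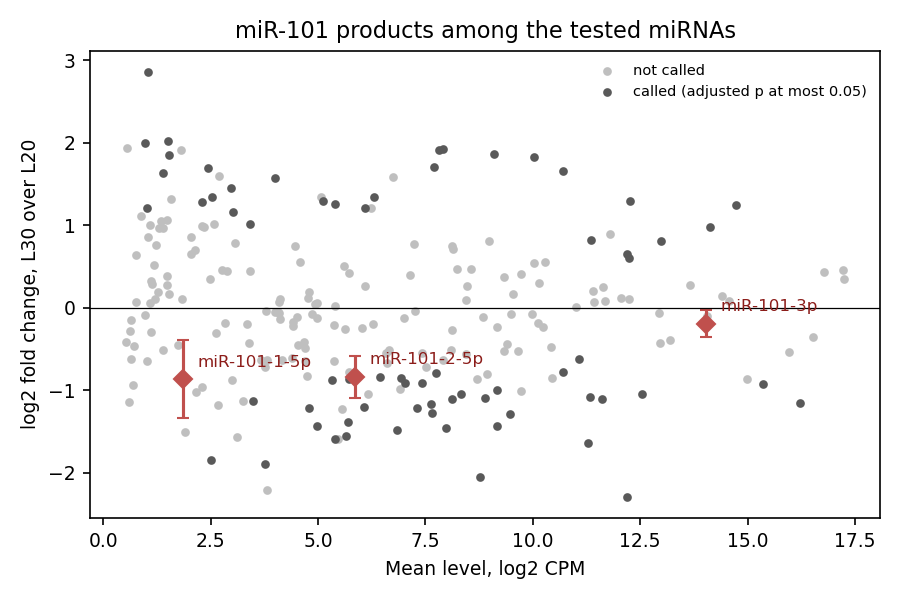
Log2 fold change, L30 over L20 (vertical axis), against mean level in log2 CPM (horizontal axis) for the 235 tested miRNAs, with the scaling to counted reads. Dark points are called and light points are not, and red diamonds are the miR-101 products with their standard error. MiR-101-3p sits at the abundant end near 0 (−0.19), whereas the 5p products sit at −0.84 and −0.86.

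How large a change the miR-101 products show depends on what their reads are divided by. The deposited TPM values have the raw reads as total, whereas the study's methods define TPM on clean reads. On that scale miR-101-3p had 6537, 4338 and 3039 TPM in L30, against 10334, 10432 and 7847 TPM in L20, with no overlap between the ages. The mean was 4638 ± 1768 TPM in L30 and 9537 ± 1465 TPM in L20 (SD, n = 3 each), a ratio of 0.486 in place of 0.876. In all, 47.5% of the tested miRNAs had every L30 library under every L20 library on this scale. MiR-101-2-5p averaged 13.2 ± 7.80 TPM in L30 and 39.5 ± 7.40 TPM in L20, and miR-101-1-5p averaged 0.663 ± 0.371 TPM in L30 and 2.25 ± 0.690 TPM in L20 (SD, n = 3 each). TPM and CPM differ by 1 constant per library, the share of raw reads counted on miRNAs, which was lower in every L30 library.

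With raw reads as library size, the log2 fold changes were −1.04 for miR-101-3p (edgeR adjusted p = 0.0606), −1.58 for miR-101-2-5p (adjusted p = 0.0262) and −1.74 for miR-101-1-5p (adjusted p = 0.0341). So 2 of the 3 were called lower, where 31.8% of the tested miRNAs were called lower. With the study's clean reads they were −0.98, −1.51 and −1.70, and the same 5p products were called (edgeR adjusted p = 0.042 and 0.0466), where 24.6% were called lower. Without the 10 most abundant miRNAs in the total, miR-101-3p took 7.07% ± 0.18 in L30 and 8.28% ± 0.547 in L20 (SD, n = 3 each), with no overlap, where 28.9% of 225 tested miRNAs did not overlap in that direction. TMM factors called 57 lower and 22 higher, and upper quartile factors 25 lower and 43 higher. The median log2 fold change of all tested miRNAs moved with the scaling, from −0.075 with counted reads to −0.86 with clean reads, −0.93 with raw reads, −0.25 under TMM factors and 0.14 under upper quartile factors. A scaling shifts all miRNAs of a library alike, so the distance of a product from that median is nearly fixed by construction and is given as a description only. MiR-101-3p lay 0.12 below the median with counted reads, and between −0.12 and −0.10 from it under all 7 scalings, although its own log2 fold change was 0.041 under upper quartile factors. MiR-101-2-5p lay between −0.77 and −0.65 from the median, and miR-101-1-5p between −0.83 and −0.78.

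**Figure D3:**
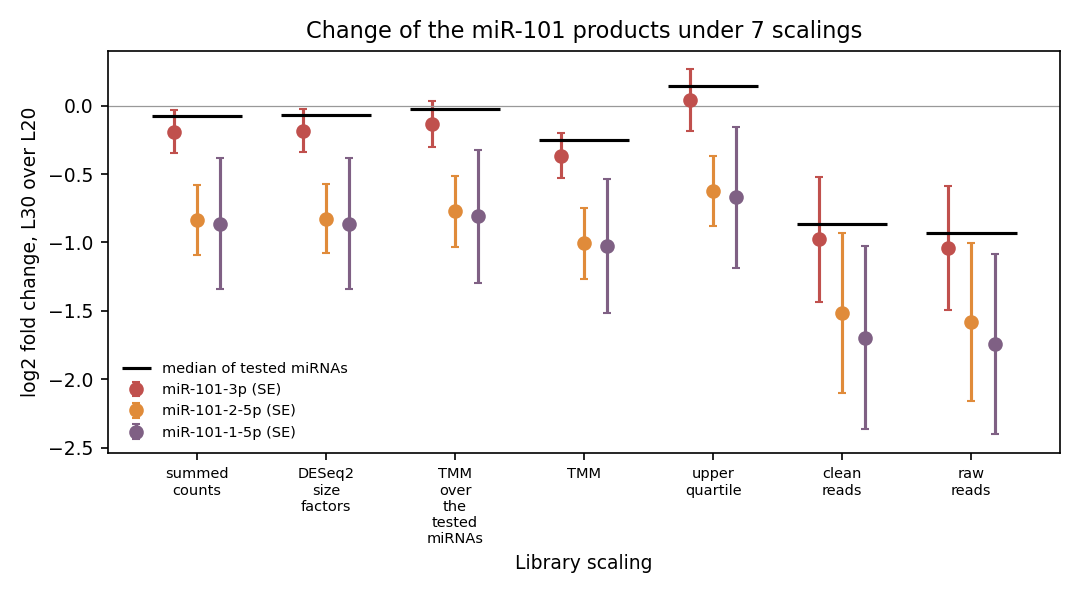
Log2 fold change, L30 over L20 (vertical axis), of each miR-101 product under 7 library scalings (horizontal axis, where summed counts are the counted reads), with its standard error. Black lines are the median of the tested miRNAs under the same scaling. The products move with the median, from −0.075 with counted reads to −0.93 with raw reads, as a scaling shifts all miRNAs of a library alike.

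The ratio of the strands is free of any scaling, since both are read in the same library. Over the 6 libraries 883768 reads were counted for miR-101-3p, 3282 for miR-101-2-5p and 190 for miR-101-1-5p, so the 5p products made up 0.391% of miR-101 reads. The 5p share was 0.337%, 0.308% and 0.198% in L30-1, L30-2 and L30-3, against 0.473%, 0.404% and 0.428% in L20-1, L20-2 and L20-3. The exact (Clopper-Pearson) 95% intervals were 0.307% to 0.369%, 0.268% to 0.354% and 0.166% to 0.235% in L30, and 0.444% to 0.502%, 0.381% to 0.428% and 0.391% to 0.467% in L20. No L30 interval reached an L20 interval, and L30-3 was the lowest. Within L30 the 5p share had the order of the share of raw reads counted on miRNAs (42.6%, 29.5% and 17.7%). Within L20 it did not, as L20-3 lay above L20-2 in 5p share but below it in counted share (47.8% against 54.5%). The part of the counted share in the 5p share was not tested. Of 65 pairs of strands, 18, or 27.7%, had a ratio of minor to major strand that was lower in every L30 library than in every L20 library. Put the other way, 296, 323 and 503 reads of miR-101-3p were counted per 5p read in L30, against 211, 246 and 233 in L20.

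The mean log2 ratio of 5p to 3p counts was −8.51 ± 0.41 in L30 and −7.84 ± 0.11 in L20 (SD, n = 3 each), a difference of −0.66 (exact permutation over libraries, both sides, p = 0.1, as low as 3 against 3 can go). Without L30-3, the library with the lowest share of counted reads, the difference was −0.43. A second test set each minor strand against its major strand over 65 pairs of strands, with the counts of the major strand as offset in edgeR, and was chosen after the values had been seen. There the log2 ratio of miR-101-2-5p to miR-101-3p differed by −0.62 ± 0.28 (SE, adjusted p = 0.0859 in edgeR) and that of miR-101-1-5p by −0.67 ± 0.46 (SE, adjusted p = 0.231 in edgeR). Neither passed, so the fall of miR-101-2-5p was not shown to differ from the change of miR-101-3p. Both pairs use the same miR-101-3p counts, and these hold the reads of both hairpins.

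**Figure D4:**
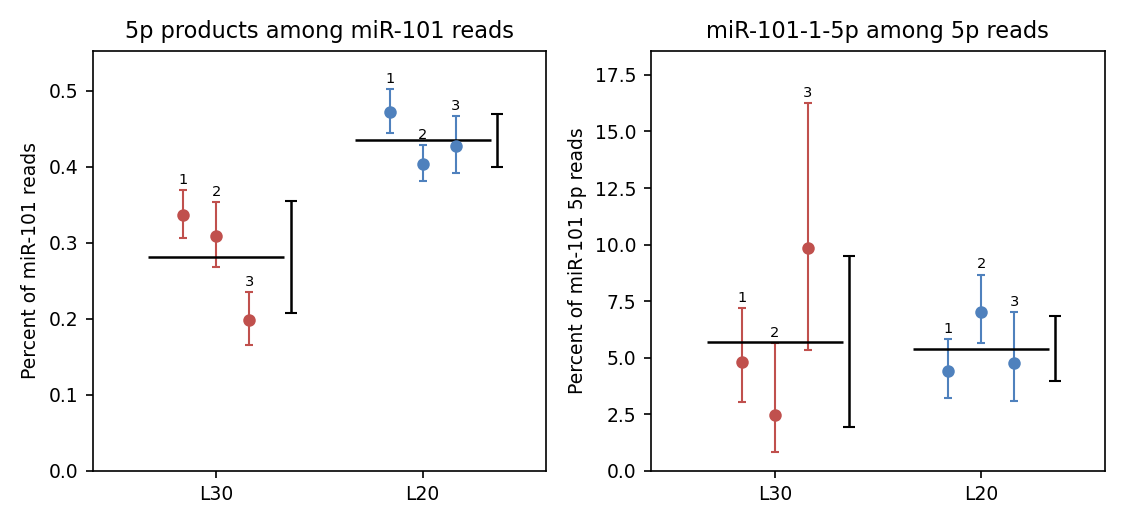
Share of the 5p products among all miR-101 reads (left) and of miR-101-1-5p among the 5p reads (right), in percent, with L30 left of L20. Points are libraries with their replicate number and exact 95% interval, lines are means and black bars at the side are SD (n = 3). The 5p share is 0.198% to 0.337% in L30 and 0.404% to 0.473% in L20, whereas the share of miR-101-1-5p overlaps.

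Among the 65 pairs, a change of the strand ratio was common. The minor strand was called lower against its partner in L30 for 13 of them, or 20.0%, and higher for 16, and the median change was 0.016. MiR-101-2-5p lay at the lower quartile, with 16 pairs more negative. Even at its highest, the 5p strand of miR-101 was rare against the median pair. The median pair held 3.20% of its reads in the minor strand, against 0.37% for miR-101-2-5p and 0.0215% for miR-101-1-5p, and 16 and 1 of the 65 pairs had a smaller share. Each of these shares sets the 5p reads of 1 hairpin against the 3p reads of both. Pairs needed a mean count of at least 10 in both strands, so a share this small can be seen only beside an abundant major strand. Other abundant miRNAs had minor strands as rare, at 0.0197% for miR-22, 0.0257% for miR-26a, 0.235% for miR-148a and 0.349% for miR-21. For miR-122 and miR-126 the share was larger, at 1.80% and 12.4%.

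**Figure D5:**
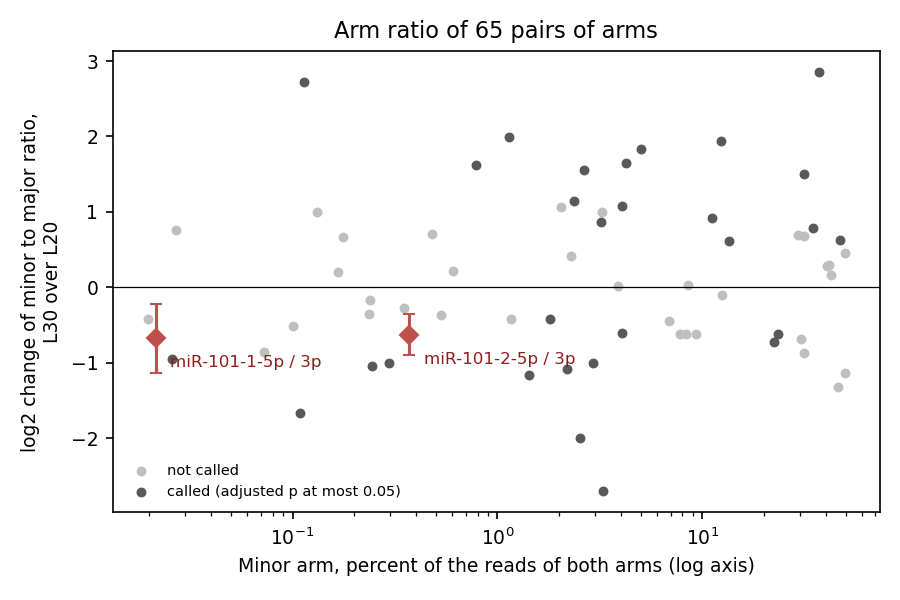
Log2 change of the ratio of minor to major strand, L30 over L20 (vertical axis), against the share of the minor strand in the reads of both (horizontal axis, log scale) for 65 pairs of strands. Dark points are called and light points are not, and red diamonds are the 5p products of miR-101 against miR-101-3p with their standard error. The miR-101 pairs lie at −0.62 and −0.67, within the spread of the other pairs, and toward the left, where the minor strand is rare.

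Nearly all 5p reads came from the mir-101-2 hairpin. MiR-101-1-5p made up 4.81%, 2.46% and 9.85% of the 5p reads in L30-1, L30-2 and L30-3, against 4.39%, 7.04% and 4.77% in L20-1, L20-2 and L20-3. With 5 to 22 reads behind the L30 values, the exact (Clopper-Pearson) 95% intervals were wide, from 5.35% to 16.3% in L30-3. The ages overlapped. The mean log2 ratio of miR-101-1-5p to miR-101-2-5p was −4.27 ± 1.06 in L30 and −4.16 ± 0.39 in L20 (SD, n = 3 each), and the difference of −0.11 was smaller than the spread between hens (exact permutation over libraries, both sides, p = 1). The mean share was 5.71% in L30 and 5.40% in L20, so share and ratio differed in sign. The difference in log2 ratio was 0.41 without L30-2 and 0.11 without L20-2. The authors' counting tolerated mismatches, and whether a read of one 5p product could be counted for the other was not tested. The 5p reads do not tell how many 3p reads each hairpin gave.

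The profile over the 6 libraries was also compared with that of every other tested miRNA, by the root mean square difference of centred log2(CPM + 1). Scaling of the libraries largely cancels in this measure. The nearest to miR-101-3p were miR-130b-3p (0.0594), miR-146a-3p (0.0611), miR-301b-3p (0.0722), let-7j-3p (0.14) and miR-1682 (0.143), where the median over the tested miRNAs was 0.458. MiR-130b-3p had 1077, 1018 and 1206 CPM in L30, against 1238, 1471 and 1186 CPM in L20. MiR-301b-3p had 426, 393 and 501 CPM in L30, against 478, 484 and 468 CPM in L20. MiR-146a-3p had 75.1, 68.8 and 73.2 CPM in L30, against 82.5, 89.7 and 76.0 CPM in L20. MiR-1682 averaged 1.89 CPM, at which a difference of a few reads shifts the profile. The opposite strands were not among the near ones. MiR-101-1-5p was the 71st (0.373) and miR-101-2-5p the 102nd (0.426) of 234. The order of these 2 cannot be read, as the added 1 flattens most the profile of miR-101-1-5p, at 1.12 to 5.46 CPM. In CPM its highest library was 4.88 times its lowest, against 2.71 times for miR-101-2-5p.

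MiR-144-3p, a product of the erythroid miR-144 and miR-451 locus, has a seed much like that of miR-101-3p in human and mouse and shares predicted targets with it there. It had 68.3, 41.2 and 30.3 CPM in L30, against 109, 114 and 66.6 CPM in L20, so L30-1 lay above L20-3. Its log2 fold change of −1.04 ± 0.35 did not pass (SE, adjusted p = 0.0549 in edgeR). MiR-101-3p outnumbered it 225, 357 and 567 times in L30-1, L30-2 and L30-3, against 169, 168 and 246 times in L20-1, L20-2 and L20-3. These miRNAs together were thus almost wholly miR-101-3p by reads.

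Other miRNAs known from human or mouse to act on EZH2 were taken as a list of 10, of which 7 are in the table and 6 were tested. In this list 1 of 6 was called higher, where 12.8% of all tested miRNAs were. It was let-7a-5p, at 10343 ± 1068 CPM in L30 and 5914 ± 754 CPM in L20 (SD, n = 3 each). Its log2 fold change was 0.81 ± 0.17 (SE, adjusted p = 0.0117 in edgeR). Near-identical let-7 members may share reads. The call was lost with clean or raw reads as library size, where 0 of all tested miRNAs were called higher. It was also lost without L20-2 and without L20-3, where 11 and 10 of all tested miRNAs were called higher, against 30 with all libraries. Upper quartile factors, DESeq2, no filter, and leaving out L30-2 or L20-1 each called 2 of the list, and Fisher's exact test on pooled counts called 6. MiR-26a-5p, the most abundant of the list, had 129088 ± 14211 CPM in L30 and 95681 ± 19909 CPM in L20 (log2 fold change 0.43, edgeR adjusted p = 0.121). The log2 fold change was 0.080 for miR-30d and −0.56 for miR-214 (adjusted p = 0.715 and 0.104 in edgeR). The median of the 6 was 0.37, against −0.075 over all tested miRNAs.

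Some markers of other liver cells were called lower in L30, as miR-101-2-5p was. Both endothelial markers passed, miR-126-5p and miR-126-3p, which are the 2 strands of 1 hairpin. So did 2 of 4 leukocyte markers (miR-142-3p and miR-223) and 1 of 3 erythroid markers (miR-451), where 16.2% of all tested miRNAs were called lower. The other leukocyte and erythroid markers did not pass (edgeR adjusted p = 0.0529 to 0.175). The summed levels were 30113 to 35547 CPM in L30 and 56766 to 73761 CPM in L20 for the endothelial list, 5193 to 8535 and 9430.0 to 11623 CPM for the leukocyte list, and 1584 to 2659.7 and 3255 to 5699 CPM for the erythroid list. None of these 3 sums overlapped between the ages, where 27.2% of single miRNAs did not overlap in that direction. Each sum was mostly 1 miRNA. In mean L30 CPM, miR-126-5p made up 28955 of 32842, miR-142-5p, which was not called, 6822 of 7290, and miR-451 1990 of 2075. The mesenchymal list summed to 5953 to 7141 CPM in L30 and 5204 to 9499.6 CPM in L20, and its 3 members had edgeR adjusted p of 0.104 to 0.808. Of the hepatocyte list, which summed to 232649 to 279605 CPM in L30 and 215636 to 261534 CPM in L20, 1 of 4 was called, miR-122-3p, as lower. MiR-122-5p, the main hepatocyte miRNA, took 82338 ± 11740.4 CPM in L30 and 104945 ± 18705 CPM in L20, so the miRNA that defines the labelled tissue was abundant at both ages. MiR-148a-3p, the most abundant of the hepatocyte list, went the other way, at 177636 ± 30517 CPM in L30 and 128771 ± 4496 CPM in L20. Its log2 fold change was 0.46 and that of miR-194 was −1.57, and neither passed (adjusted p = 0.0715 and 0.0638 in edgeR). No listed marker was at 0. The part of these cells in the change of miR-101-2-5p was not tested.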

How the data were processed

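Liver small RNA of 3 L30 and 3 L20 libraries was analysed, each taken as 1 hen and grouped by the sample titles. According to the study's methods, the authors trimmed and filtered reads with the Fastx toolkit and aligned them to chicken miRBase entries with CLC Genomics Workbench, tolerating mismatches and shortened or extended ends. The authors deposited the resulting counts per mature miRNA, not normalized, and TPM values. The deposited TPM values equalled the counts scaled to raw reads in every library. Columns of sample values left unmapped numbered 0.

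The quasi-likelihood test of edgeR 4.0.16 (R 4.3.3, robust fit) was run on the counts, with the summed counts of all listed miRNAs as library size and factors of 1. FilterByExpr at its defaults (minimum count 10, minimum total 15) left 235 miRNAs, over which p-values were adjusted by Benjamini and Hochberg. An adjusted p of at most 0.05 was called, and standard errors are the log2 fold change over the root of F. Fisher's exact test, named in the study's methods, was an alternative, run here on counts pooled by age, which leaves out the spread between hens. Its totals were the counted reads, whereas the study compared levels as TPM, so its calls here are not those of the study. Other alternatives were DESeq2 1.42.0, limma 3.58.1 on log2(CPM + 1), other scalings (clean reads from the study's read summary), other filters, each library left out and the replicate number as a block. TMM factors over the tested miRNAs alone and the test of 65 pairs of strands (mean count of at least 10 in both) were added after seeing the data. Single values were compared by exact permutation over 20 regroupings.

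All miR-101 products, the 5 nearest profiles and fixed lists are named; these members and lists were chosen with earlier results of these data known. Sharing of seeds was not computed from sequence, and miR-144-3p is named from background knowledge. List miRNAs without an entry in the table, such as miR-192-5p, were not analysed here. The predicted targets were not used here.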

Additional observations from a re-analysis of the deposited data

How the results depend on the processing

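With counted reads, 68 miRNAs were called. Pooled counts with Fisher's exact test gave 197, and leaving out 1 library gave 31 (without L20-3) to 64, with 32 without L20-2. Of the 3 miR-101 products 1 was called. Clean reads and raw reads called 2, with log2 fold changes of −1.70 and −1.74 for miR-101-1-5p. Fisher's test, with counted reads as total, called 3, at −0.23 for miR-101-3p and −0.93 for miR-101-1-5p. Upper quartile factors called 0, with −0.62 for miR-101-2-5p and a turned sign of 0.041 for miR-101-3p. TMM factors over the tested miRNAs also called 0, with −0.77 for miR-101-2-5p. Leaving out 1 library called 0 to 1, with −0.98 to −0.66 for miR-101-2-5p, which was negative under all 18 alternatives. Its adjusted p was 0.00808 to 0.104 apart from Fisher's test. The difference in log2 ratio between the 5p products was −0.64 to 0.41 with 1 library left out.

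Same-numbered libraries come from different hens. Their deviations correlated at −0.0392, 0.223 and 0.168, where libraries of unlike number correlated at −0.236 to 0.0892. Whether same-numbered libraries share more than the number was not tested. A replicate block in the fit gave 74 called miRNAs and 1 called product. In the test of strand pairs the block gave −0.66 for miR-101-2-5p against miR-101-3p (edgeR adjusted p = 0.0282, against 0.0859 without it). Of the 65 pairs 29 were called, and 15 without L20-3. Of the 5 nearest profiles 3 or 4 remained with 1 library left out. The filter of 10 counts in every library removed miR-101-1-5p. The 5 to 81 reads of miR-101-1-5p limit what can be said of its hairpin.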
